A study of Homo sapiens with 13 samples.

Results

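The interleukin and interferon receptor subunits described here are 10 genes, IL2RA, IL2RB, IL2RG, IL7R, IL4R, IL15RA, IL21R, IL10RA, IFNGR1 and IFNGR2, found by their symbols among the 45744 genes of the deposited count table. All 10 had enough counts to be tested, as had 17252 genes in all. They were measured by RNA sequencing in 13 libraries of HuT78, an established CD4+ T cell line from a patient with Sézary syndrome, a cutaneous T cell lymphoma with malignant cells in the blood. All cells were cultured for 72 h with one of the agents or the solvent DMSO. Chaetocin, a fungal metabolite that inhibits histone H3 lysine 9 methyltransferases of the SUV39H1 type, was given at 10 nM in 4 libraries, replicates 1 to 4. F5446, a code-named SUV39H1 inhibitor, was given at 10 nM in 3 libraries, replicates 2 to 4. Romidepsin, a drug against cutaneous lymphoma that blocks histone deacetylases, was given at 1 uM in 4 libraries, replicates 1 to 4. DMSO alone was given in 2 libraries, replicates 1 and 4. All groups are the same single cell line, and the labels do not say that replicates were separate cultures, so the spread behind each p-value is that of these libraries and may be technical. In the F5446 group the treatment tags carry a code whose last digit differs between libraries, and the titles, which all give F5446, were used.

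These receptors act as chains that assemble around a cytokine and bring Janus kinases together, which then phosphorylate STAT transcription factors. IL2RG is the common gamma chain, shared by the receptors for interleukins 2, 4, 7, 9, 15 and 21, and it binds the kinase JAK3. IL2RB signals for interleukins 2 and 15, with IL2RA or IL15RA as the private chain that raises affinity for one of them. IL7R, IL4R and IL21R pair with IL2RG for their own ligands. IL10RA pairs with IL10RB to bind interleukin 10, while IFNGR1 binds interferon gamma and IFNGR2 is needed for the signal. IL2RA is also known as CD25, the activation marker of T cells.

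The libraries held 19901052 to 30816188 counts. On the first principal component, which held 17.8% of the variance, every library numbered 1 or 2 lay apart from every library numbered 3 or 4, and chaetocin replicate 3 stood alone at 112.7. The share of counts from mitochondrially encoded genes was 5.22 to 15.9%, the highest share again in chaetocin replicate 3. Of 10 T cell markers, 9 had a mean of at least 1 CPM (counts scaled to a common library size by TMM) in every group, and CD28 did not. The B cell genes CD79A, CD79B and MS4A1 and all 5 epithelial markers (EPCAM, KRT5, KRT8, KRT18 and CDH1) also reached that level in every group, as did NKG7 and CD8A of 5 CD8 T and NK cell markers, COL1A1 and COL3A1 of 5 fibroblast markers and ITGAM of 5 myeloid markers, while PAX5 stayed near 0 and the hemoglobin genes HBA1 and HBB had no counts. The summed epithelial markers ran from 103.96 to 118.7 CPM with chaetocin, 117.9 to 121.6 with F5446, 123.8 to 168.0 with romidepsin and 106.8 to 138.6 with DMSO. The summed CD8 T and NK cell markers ran from 32.8 to 56.0 CPM with chaetocin and from 52.9 to 61.6 with DMSO, and the summed fibroblast markers from 23.0 to 33.0 and from 18.2 to 21.5. Each sum was mostly a single gene, NKG7 (means of 43.9 with chaetocin and 54.6 with DMSO) and COL1A1 (24.1 and 18.1). COL1A1 was higher with chaetocin without overlap, as were 5.22% of all tested genes. CD8B, NCAM1, KLRD1, COL1A2 and DCN averaged at most 0.237 CPM in any group. The part of these markers in the results below was not tested. In bulk RNA, fewer cells of a type and less RNA per cell cannot be told apart.

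Of the 10 genes, 9 have an upstream region in the RefSeq promoter table of build GRCh38.p14, in 13 windows of 250 bases that end at an annotated start. The 3 windows shown belong to the most abundant subunit, IL2RG, and to IL7R and IFNGR2, the pair with the strongest inverse pattern across libraries. The windows were searched on both strands, with overlapping matches counted, for 4 motifs. TTCNNNGAA is the interferon-gamma-activated site, found in promoters that respond to this cytokine. CCGGAAG stands for the core that ETS factors bind in many lymphoid promoters. GGGCGG is the GC box of Sp1-type factors in promoters rich in G and C. TATAAA is the TATA box, found near the start of a minority of genes. Capitals mark each match, in either orientation. IL2RG lies on chrX:71111578-71111827, minus strand, IL7R on chr5:35856641-35856890, plus strand, and IFNGR2 on chr21:33403163-33403412, plus strand.
IL2RG: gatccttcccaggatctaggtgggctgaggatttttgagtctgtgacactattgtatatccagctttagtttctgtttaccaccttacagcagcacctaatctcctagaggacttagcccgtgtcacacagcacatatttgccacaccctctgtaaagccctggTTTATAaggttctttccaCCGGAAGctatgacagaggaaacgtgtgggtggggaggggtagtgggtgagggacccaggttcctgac
IL7R: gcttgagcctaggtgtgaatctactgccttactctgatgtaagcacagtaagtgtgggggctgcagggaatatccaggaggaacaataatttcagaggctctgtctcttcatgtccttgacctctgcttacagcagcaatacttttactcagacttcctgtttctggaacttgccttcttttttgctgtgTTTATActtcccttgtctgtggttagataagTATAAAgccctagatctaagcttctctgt
IFNGR2: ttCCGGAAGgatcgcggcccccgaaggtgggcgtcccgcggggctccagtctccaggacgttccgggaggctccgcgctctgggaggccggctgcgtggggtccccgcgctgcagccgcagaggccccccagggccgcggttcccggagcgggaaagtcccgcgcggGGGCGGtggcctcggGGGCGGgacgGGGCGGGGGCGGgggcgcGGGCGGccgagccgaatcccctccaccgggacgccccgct

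The 3 windows differ in composition. That of IFNGR2 is 80.4% G and C, with 5 GC boxes and an ETS match at its far end, and it holds no TATA match. That of IL7R is 43.6% G and C, with 2 TATA matches and no other match. That of IL2RG is 50% G and C, with 1 ETS match and 1 TATA match on the opposite strand. The median over all 35116 windows of the table is 58% G and C. The ETS match was present in 2 of the 13 member windows and in 8.517% of all windows, the GC box in 5 and in 42.64%, and the TATA match in 2 and in 10.72%. The interferon-gamma-activated site was present in 1 member window, of IL15RA, and in 6.567% of all windows. These matches describe letters and not bound factors.

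Levels between genes were compared per length, as CPM divided by the kilobases of the gene's exons (RPKM). The common chain IL2RG was the most abundant subunit, with a mean of 58.8 RPKM over the 13 libraries and a range of 43.2 to 128.7. IL2RB came next at 16.6 RPKM, ranging from 9.23 to 22.9, so that the 2 signalling chains of the interleukin 2 and 15 receptors stood above every other subunit in all 13 libraries. IL2RG and IL2RB did not overlap each other, nor did IL2RB overlap IFNGR1, the next in order at 7.31 RPKM (6.13 to 8.84). IFNGR2 followed at 6.48 RPKM (2.71 to 9.07) and was below IFNGR1 in only 8 of 13 libraries. IL15RA at 4.16, IL7R at 4.03 and IL21R at 3.80 RPKM did not differ beyond their spread, each exceeding the next in 7 of 13 libraries. IL4R had 2.76 RPKM (2.10 to 3.57), below IL21R in all 13 libraries although the ranges overlapped. IL2RA, the high-affinity chain, was far lower at 0.568 RPKM (0.215 to 1.02), and IL10RA was lowest at 0.409 (0.178 to 0.685), with IL2RA above it in 9 of 13 libraries. The step from IL4R down to IL2RA was the third without overlap. The order of the middle subunits depended on the length used. Per kilobase of the longest coding sequence, the means were 17.95 CPM for IFNGR2, 17.7 for IL7R, 16.3 for IFNGR1 and 14.3 for IL15RA. IL2RG (146.6) and IL2RB (47.1) were again highest, and IL2RA (2.76) and IL10RA (1.91) lowest.

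**Figure D1:**
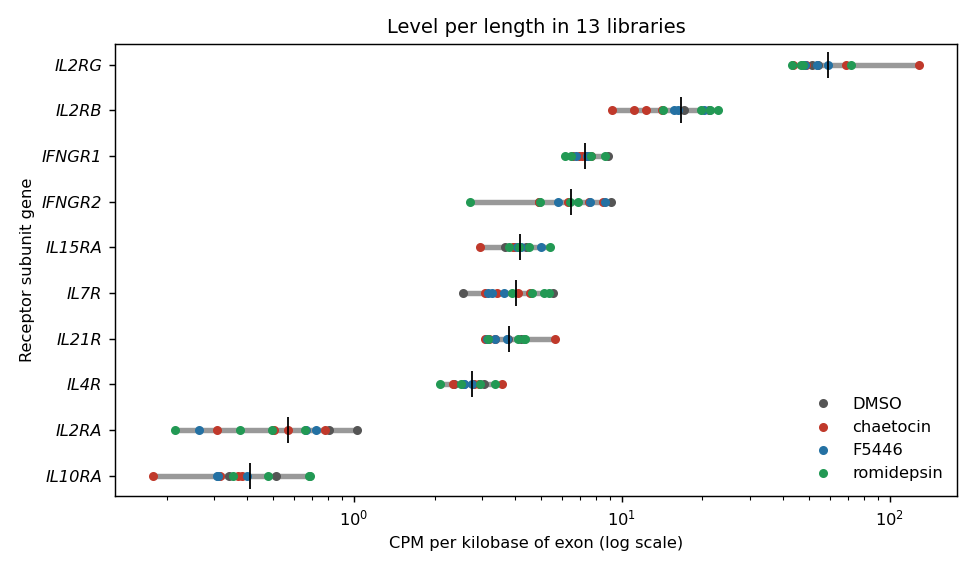
Level per exon length (RPKM, log scale) of the 10 receptor subunits in each of the 13 libraries, coloured by treatment, with genes in order of their mean. Black ticks are means and grey bars the ranges. IL2RG at a mean of 58.8 and IL2RB at 16.6 stand above the rest, and IL2RA at 0.568 and IL10RA at 0.409 below.

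Some of these genes share exon bases with a neighbour in GENCODE 29, and the strand setting of the counting is not given in the sources used here. IL2RG shares 50.8% of its exon bases on the same strand with AL590764.2, which had at most 30 counts in a library, against at least 2566 for IL2RG. These counts do not show how reads of the shared bases were assigned, or whether they were counted. IL21R shares 23.3% with its antisense gene IL21R-AS1, which had at most 4 counts. IFNGR2 shares 12.8% with TMEM50B on the opposite strand, which was about as abundant as IFNGR2 itself (17.5 to 21.9 CPM in the group means). With the strand setting unknown, it cannot be said whether reads of that stretch were told apart.

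From here on levels are in CPM. IL2RA (ENSG00000134460) was scarce everywhere and highest with DMSO. It had 3.21 and 4.06 CPM in DMSO replicates 1 and 4. With chaetocin it had 1.22, 2.002, 3.09 and 2.25 CPM in replicates 1 to 4, with F5446 1.04, 2.62 and 2.87 CPM in replicates 2 to 4, and with romidepsin 1.97, 0.850, 2.59 and 1.49 CPM in replicates 1 to 4. Both DMSO libraries lay above all 11 libraries of treated cells, a split whose share among all tested genes was not computed. DMSO replicate 1 exceeded chaetocin replicate 3 by little. These values rest on 17 to 84 counts a library. The log2 difference from DMSO was -0.76 with chaetocin (95% confidence interval -1.85 to 0.32), -0.74 with F5446 (-1.90 to 0.42) and -1.06 with romidepsin (-2.15 to 0.02). Leaving out 1 library moved the F5446 value from -0.99 without F5446 replicate 4 to -0.41 without F5446 replicate 2. The chaetocin value moved from -0.99 without chaetocin replicate 3 to -0.57 without chaetocin replicate 1, and that of romidepsin from -1.33 without romidepsin replicate 3 to -0.84 without romidepsin replicate 2. None passed edgeR's quasi-likelihood test, with unadjusted p of 0.158, 0.197 and 0.0537 and adjusted p of 1 in each. The same 2 DMSO libraries enter all of them, so they are not separate observations.

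IL2RB (ENSG00000100385), the signalling chain of the interleukin 2 and 15 receptors, had the smallest p of the members and was lowest with chaetocin. It had 99.1 and 80.2 CPM in DMSO replicates 1 and 4. With chaetocin it had 52.4, 57.8, 66.3 and 43.4 CPM in replicates 1 to 4. With F5446 it had 76.3, 94.95 and 73.8 CPM in replicates 2 to 4, and with romidepsin 107.5, 100.2, 67.1 and 92.9 CPM in replicates 1 to 4. All 4 chaetocin libraries lay below every other library, with chaetocin replicate 3 just under romidepsin replicate 3 (66.3 against 67.1 CPM). The share of all tested genes with this split was not computed. The mean was 55.0 ± 9.63 CPM (SD, n = 4) with chaetocin, 81.7 ± 11.5 (n = 3) with F5446, 91.9 ± 17.6 (n = 4) with romidepsin and 89.7 ± 13.3 (n = 2) with DMSO. Against DMSO the chaetocin log2 difference was -0.71 (-1.09 to -0.32), with an unadjusted p of 0.000977, rank 23 of 17252 genes, and an adjusted p of 0.733 in edgeR. Against F5446 at the same dose and time it was -0.57 (-0.92 to -0.23), with an unadjusted p of 0.00233, rank 28, and an adjusted p of 0.999. Neither passed the threshold of 0.05. The chaetocin difference from DMSO was -0.85 among replicate numbers 1 and 2 and -0.58 among numbers 3 and 4. Leaving out 1 library at a time kept it between -0.85 and -0.54, and it was -0.81 without chaetocin replicate 3. At -0.54, without DMSO replicate 1, the unadjusted p was 0.0264 and the adjusted p 0.779 in edgeR, and the rank was 621 of 19169 genes. F5446 and romidepsin differed from DMSO by -0.13 (-0.55 to 0.28) and 0.04 (-0.36 to 0.43).

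IL15RA (ENSG00000134470), which presents interleukin 15, was level across the groups. Its mean was 13.6 ± 1.91 CPM (SD, n = 4) with chaetocin, 16.1 ± 1.85 (n = 3) with F5446, 16.2 ± 2.54 (n = 4) with romidepsin and 14.6 ± 1.86 (n = 2) with DMSO. The lowest library was chaetocin replicate 1 at 10.8 CPM and the highest was romidepsin replicate 4 at 19.7 CPM, and every pair of groups overlapped. Its log2 differences from DMSO were -0.10 (-0.56 to 0.36) with chaetocin, 0.14 (-0.34 to 0.62) with F5446 and 0.15 (-0.31 to 0.61) with romidepsin. Chaetocin and F5446 differed by -0.24 (-0.64 to 0.16).

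IL2RG (ENSG00000147168), the common gamma chain, was highest in chaetocin replicate 3. DMSO replicates 1 and 4 had 141 and 149 CPM. Chaetocin replicates 1 to 4 had 120.4, 135, 355 and 189.7 CPM, F5446 replicates 2 to 4 had 133, 148 and 162 CPM, and romidepsin replicates 1 to 4 had 119, 128, 131 and 198 CPM. Chaetocin replicate 3, the library that stood apart on the first principal component, was the highest by far. Romidepsin replicate 4 and chaetocin replicate 4 came next, above the remaining libraries. Replicate-number sets held 34.8% of its variance and treatments 14.8%. The chaetocin difference from DMSO was 0.46 on the log2 scale (-0.36 to 1.28, unadjusted p = 0.241, edgeR) and 0.03 without chaetocin replicate 3. Against F5446 it was 0.44 (-0.28 to 1.15) and 0.01 without that library. F5446 and romidepsin differed from DMSO by 0.03 (-0.82 to 0.88) and -0.0075 (-0.81 to 0.80).

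**Figure D2:**
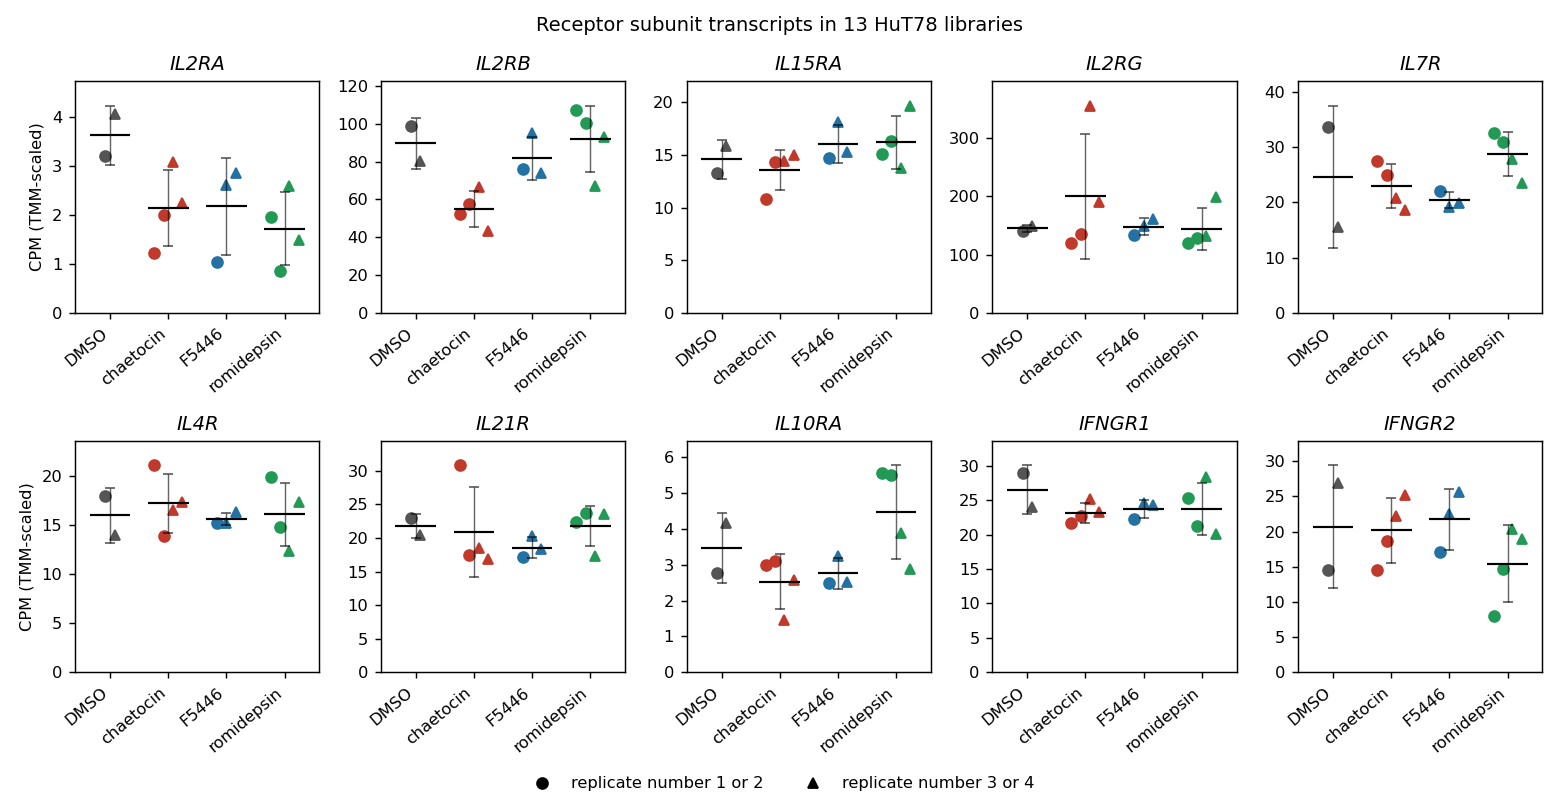
Level (CPM) of each of the 10 receptor subunits in every library, grouped by treatment, with marker shape giving the replicate-number set, horizontal bars at the group means and whiskers of 1 SD. IL2RB lies between 43.4 and 66.3 with chaetocin, below all other libraries, the nearest being romidepsin replicate 3 at 67.1. IL2RG reaches 355 in chaetocin replicate 3 alone.

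IL7R (ENSG00000168685), the private chain for interleukin 7, had 49.8% of its variance between replicate-number sets and 31.8% between treatments. DMSO replicate 1 had 33.7 CPM, the highest of all libraries, and DMSO replicate 4 had 15.5 CPM, the lowest. Chaetocin replicates 1 to 4 had 27.5, 24.9, 20.8 and 18.7 CPM, F5446 replicates 2 to 4 had 22.1, 19.2 and 19.8 CPM, and romidepsin replicates 1 to 4 had 32.5, 31.0, 27.9 and 23.5 CPM. Every treated group therefore lay inside the range that the 2 DMSO libraries span. The log2 difference from DMSO was -0.10 with chaetocin (-0.60 to 0.41), -0.27 with F5446 (-0.80 to 0.26) and 0.22 with romidepsin (-0.28 to 0.73). Without DMSO replicate 4 the chaetocin value was -0.55 and without replicate 1 it was 0.57, so its sign rested on which DMSO library was kept. Chaetocin and F5446 differed by 0.17 (-0.27 to 0.62).

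IL4R (ENSG00000077238), which binds interleukin 4 and, with IL13RA1, interleukin 13, ranged from 12.4 to 21.0 CPM over the 13 libraries. Its group means were 17.2 ± 2.97 CPM (SD, n = 4) with chaetocin, 15.6 ± 0.605 (n = 3) with F5446, 16.1 ± 3.23 (n = 4) with romidepsin and 16.0 ± 2.83 (n = 2) with DMSO. It had the largest p of the members in the test of any difference between the 4 groups (unadjusted p = 0.9 in edgeR, rank 15005 of 17252). Its differences from DMSO were 0.11 (-0.37 to 0.58), -0.04 (-0.53 to 0.46) and 0.0085 (-0.47 to 0.48) on the log2 scale for chaetocin, F5446 and romidepsin, and chaetocin differed from F5446 by 0.14 (-0.28 to 0.56).

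IL21R (ENSG00000103522), the private chain for interleukin 21, was lower in all 3 F5446 libraries than in both DMSO libraries, by a small margin. Such a split in this direction was found for 9.12% of all tested genes. F5446 replicates 2 to 4 had 17.1, 20.3 and 18.3 CPM, against 23.0 and 20.5 CPM in DMSO replicates 1 and 4. Chaetocin replicate 1 had 30.8 CPM and replicates 2 to 4 had 17.5, 18.4 and 16.9 CPM, while romidepsin replicates 1 to 4 had 22.4, 23.7, 17.4 and 23.5 CPM. The F5446 difference was -0.23 on the log2 scale (-0.73 to 0.28, unadjusted p = 0.362, edgeR). The chaetocin difference was -0.06 (-0.54 to 0.42), and -0.31 without chaetocin replicate 1. Romidepsin differed from DMSO by -0.00081 (-0.48 to 0.48), and chaetocin from F5446 by 0.17 (-0.26 to 0.59).

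IL10RA (ENSG00000110324), the ligand-binding chain for interleukin 10, was scarce, with 29 to 124 counts a library. It had 2.78 and 4.15 CPM in DMSO replicates 1 and 4. It had 3.001, 3.10, 1.45 and 2.57 CPM in chaetocin replicates 1 to 4, 2.49, 3.25 and 2.52 CPM in F5446 replicates 2 to 4, and 5.55, 5.50, 3.89 and 2.88 CPM in romidepsin replicates 1 to 4. The 2 highest values were in romidepsin replicates 1 and 2, and the lowest was in chaetocin replicate 3. The log2 difference from DMSO was -0.45 with chaetocin (-1.30 to 0.40), -0.33 with F5446 (-1.23 to 0.57) and 0.36 with romidepsin (-0.51 to 1.23). The sizes turned on the DMSO library kept. Without DMSO replicate 1 the values were -0.71, -0.60 and 0.0997, and without DMSO replicate 4 they were -0.13, -0.0098 and 0.68, in the same order of agents. Chaetocin and F5446 differed by -0.12 (-0.88 to 0.64). Its partner IL10RB, which shares 38.1% of its exon bases on the same strand with AP000295.1, was at most 1.15 CPM in any library.

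IFNGR1 (ENSG00000027697), the ligand-binding chain for interferon gamma, was the steadiest member, with a coefficient of variation of 10.9% over the 13 libraries and a range from 20.1 CPM in romidepsin replicate 4 to 28.98 CPM in DMSO replicate 1. Its mean was 26.5 ± 3.52 CPM (SD, n = 2) with DMSO, 23.2 ± 1.47 (n = 4) with chaetocin, 23.7 ± 1.32 (n = 3) with F5446 and 23.7 ± 3.79 (n = 4) with romidepsin. The differences from DMSO were -0.19 (-0.58 to 0.19), -0.16 (-0.57 to 0.24) and -0.16 (-0.54 to 0.22) on the log2 scale, all within the spread, and chaetocin differed from F5446 by -0.03 (-0.37 to 0.31).

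IFNGR2 (ENSG00000159128), the signalling chain for interferon gamma, followed the replicate number. It had 14.6 and 26.9 CPM in DMSO replicates 1 and 4. It had 14.5, 18.6, 22.3 and 25.2 CPM in chaetocin replicates 1 to 4, 17.1, 22.5 and 25.7 CPM in F5446 replicates 2 to 4, and 8.01, 14.6, 20.3 and 18.9 CPM in romidepsin replicates 1 to 4. All 6 libraries numbered 1 or 2 had at most 18.6 CPM, and all 7 numbered 3 or 4 had at least 18.9 CPM. It was the only member whose libraries did not overlap between these sets, where 3.23% of all tested genes were higher and 2.25% lower in numbers 3 and 4 without overlap. The treatment differences from DMSO were -0.04 with chaetocin (-0.71 to 0.64), 0.07 with F5446 (-0.64 to 0.78) and -0.42 with romidepsin (-1.09 to 0.25) on the log2 scale. Leaving out DMSO replicate 1 gave -0.41 for chaetocin, and leaving out replicate 4 gave 0.47. Chaetocin and F5446 differed by -0.11 (-0.70 to 0.49).

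Set against all genes, no member was called in any comparison. The edgeR test at an adjusted p under 0.05 called 0% of the 17252 genes in each of the 3 comparisons with DMSO and in chaetocin against F5446 (0% each). Unadjusted p was under 0.05 for 703, 428, 487 and 587 genes in that order, and IL2RB was the only member among them, in the chaetocin comparisons with DMSO and with F5446. DESeq2 called 9, 1, 1 and 2 genes and no member.

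With chaetocin, 8 of 10 members lay below DMSO and 2 above, with a median log2 difference of -0.10 against 0.0070 for all tested genes. IL2RA and IL2RB were below DMSO with no overlap between libraries, as were 6.09% of all genes, and no member was above without overlap, as were 5.22%. With F5446, 7 members lay below DMSO and 3 above, with a median of -0.15 against 0.0092. IL2RA and IL21R were below without overlap, as were 9.12% of all genes, and no member was above, as were 9.44%. With romidepsin at its 1 uM dose, 5 members lay on either side, with a median of 0.0038 against 0.0054, and IL2RA alone was below without overlap, as were 4.98% of all genes, with none above (5.34% of all genes). These comparisons share the 2 DMSO libraries.

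Chaetocin and F5446, which the labels give at the same dose and time, were compared as unpaired groups of 4 and 3 libraries. They left 6 members lower and 4 higher with chaetocin, and the median difference was -0.03 on the log2 scale against -0.00047 for all genes. With the replicate numbers as a block, 4 members were lower and 6 higher, with a median of 0.03, as IL2RA (0.11) and IFNGR2 (0.09) then lay above 0. IL2RB was lower in all 4 chaetocin than in all 3 F5446 libraries, as were 3.11% of all genes, and none was higher without overlap (2.28% of all genes). For the other 9 members the interval of the difference included 0, and it was widest for IL2RA (-1.01 to 0.96) and narrowest for IFNGR1. With the replicate numbers as a block, edgeR called 11 genes in this comparison, none of them a member, and IL2RB had an adjusted p of 0.348. Romidepsin was given at another dose and was not compared with either agent.

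**Figure D3:**
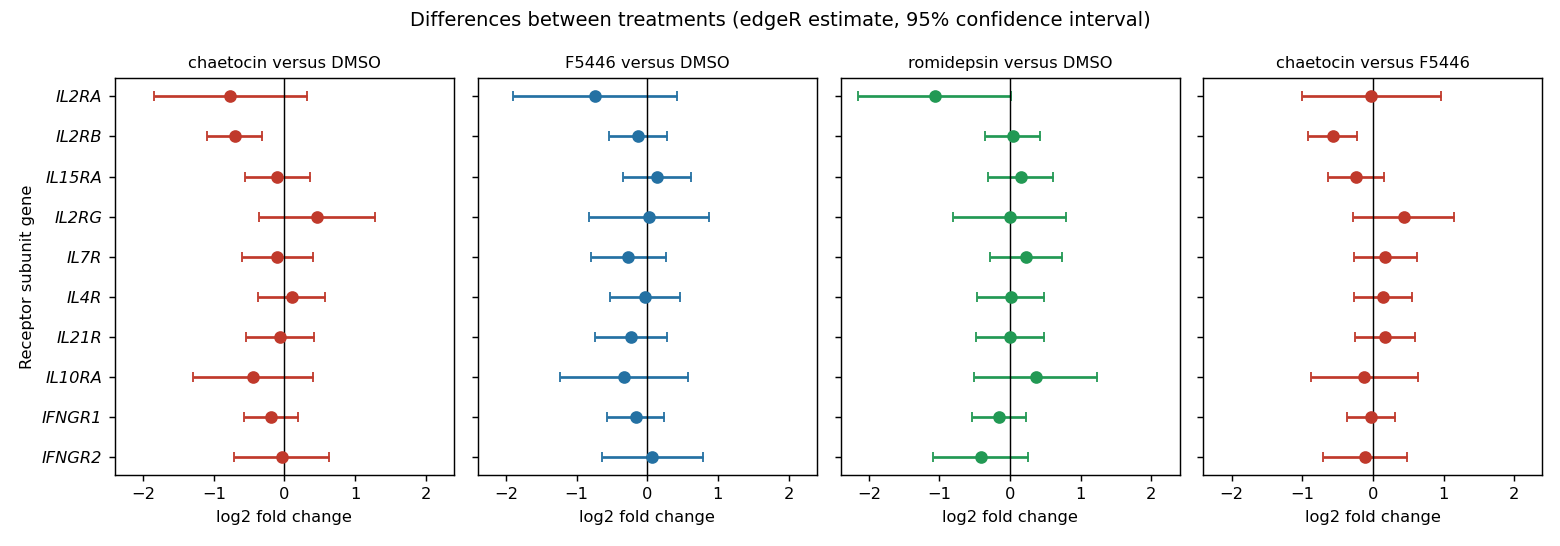
Log2 difference with its 95% confidence interval for each receptor subunit in the 4 comparisons. For IL2RB the intervals of chaetocin against DMSO (-1.09 to -0.32) and against F5446 (-0.92 to -0.23) lie below 0, and every other interval includes 0.

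The test of any difference between the 4 groups called 4 genes, 0.0232% of those tested, and none is a member. They were CAPN6, ITGB7, GBP2 and ATF5. IL2RB ranked 24 of 17252, with an unadjusted p of 0.000568 and an adjusted p of 0.402 in edgeR. Its adjusted p was 0.0383 when a term separated the replicate-number sets and 0.0014 with no filter on low counts, both past the threshold, and ran from 0.0563 to 0.672 under the other settings with all libraries. The remaining 9 members had unadjusted p of at least 0.108, the value of IL10RA. The groups held 69.0% of the variance of IL2RB over the libraries, where the median was 27.3% for the members and 20.7% for all tested genes.

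Some members varied together or in opposition across libraries, and these values are descriptions over 13 libraries that share depth, scaling and the replicate-number sets. IL7R and IFNGR2 were the most opposed of the 45 pairs of members, with Pearson r = -0.83 and Spearman rho = -0.87 on log2 CPM. The value was -0.83 without the 2 libraries farthest from the IL7R median, -0.63 within the 6 libraries numbered 1 or 2 and -0.83 within the 7 numbered 3 or 4. IL7R had a median of 29.3 CPM in numbers 1 and 2 and 19.8 CPM in numbers 3 and 4, and IFNGR2 had 14.6 and 22.5 CPM. Replicate-number sets held 58.6% of the variance of IFNGR2 and the 49.8% of IL7R given above, against a median of 13.3% for all tested genes and 18.3% for the members. The most similar pair by Pearson r was IL2RA and IFNGR1, with r = 0.70 and rho = 0.70. Their r and rho were 0.90 and 0.89 within numbers 1 and 2, and 0.60 and 0.39 within numbers 3 and 4. By Spearman rho the most similar pair was IL2RG and IFNGR2, with rho = 0.73 and r = 0.48. Their rho was 0.66 within numbers 1 and 2 and -0.18 within numbers 3 and 4. The 2 interferon gamma chains did not vary together, with r = -0.02 and rho = 0.07.

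**Figure D4:**
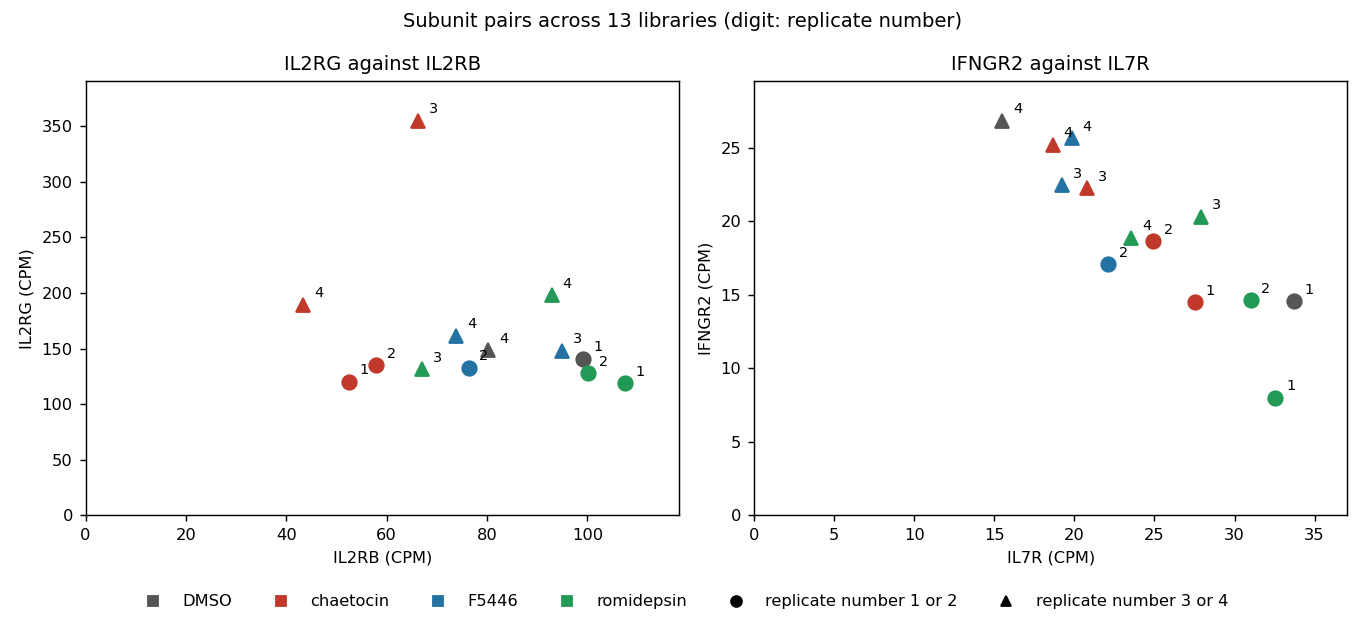
Levels (CPM) of paired subunits plotted against each other, 1 point a library, coloured by treatment with shape for the replicate-number set. IL7R is lower in libraries where IFNGR2 is higher (r = -0.83 over 13 libraries). The 4 chaetocin libraries have the lowest IL2RB, with chaetocin replicate 3 just below romidepsin replicate 3.

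The balance of IL2RG to IL2RB was highest with chaetocin, by little in replicates 1 and 2. The ratio of IL2RG to IL2RB in CPM was 1.64 ± 0.306 (SD, n = 2) with DMSO, 1.83 ± 0.324 (n = 3) with F5446, 1.62 ± 0.501 (n = 4) with romidepsin and 3.59 ± 1.53 (n = 4) with chaetocin. Chaetocin replicates 1 to 4 had 2.30, 2.33, 5.35 and 4.37, and no other library exceeded 2.19. This ratio uses the IL2RB and IL2RG values given above and is not a separate observation. The ratio of IL2RB to IL2RA was 25.3 ± 7.84 with DMSO, 28.2 ± 10.7 with chaetocin, 45.0 ± 24.9 with F5446 and 65.2 ± 38.5 with romidepsin, and the groups overlapped. The ratio of IFNGR1 to IFNGR2 ran from 0.894 to 1.99 in the DMSO libraries alone, a span that covered all chaetocin and F5446 libraries, and from 1.06 to 3.15 with romidepsin, where replicate 1 lay above that span. The ratios were not tested.

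The genes most like each member were taken as the 2 highest Pearson r over the 13 libraries among genes averaging 10 CPM or more, as a description without a test. For IL2RB they were CLSTN1 (0.86) and PTPN12 (0.85), and for IL2RA COL6A1 (0.86) was among them. For IL2RG they were RPL28 (0.96) and PRR11 (0.95), a pattern in which chaetocin replicate 3 is the far point. For IL7R they were STAT4 (0.92) and GLIPR1 (0.91), and for IFNGR2 VLDLR (0.96) and CEP85 (0.94). IL15RA was most like CORO2A (0.89) and MEGF9 (0.89), IL4R like SGTA (0.93) and TRAF1 (0.89), and IL21R like RGS16 (0.86) and AMMECR1L (0.83). IL10RA was most like SLC18B1 (0.91) and TTLL7 (0.89). IFNGR1 had the weakest matches, OLA1 (0.79) and MAP9 (0.78).

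Of the ligands, 8 of 11 could be tested and none was called in either direction in any comparison. IFNG, the ligand of IFNGR1 and IFNGR2, had 4.70 and 1.30 CPM in DMSO replicates 1 and 4 and 0.870, 0.156, 0 and 0.583 CPM in chaetocin replicates 1 to 4. The groups did not overlap, as for 6.09% of all tested genes in this direction. The log2 difference was -2.88 (-4.70 to -1.07, unadjusted p = 0.00345, edgeR), on 0 to 20 counts in a chaetocin library. IFNG differed from DMSO by -0.96 (-2.86 to 0.94) with F5446 and by -0.91 (-2.69 to 0.87) with romidepsin. The smallest p among ligands was that of IL15 with F5446 (0.70, -0.10 to 1.504) and of IL10 with romidepsin (0.59, -0.03 to 1.21). IL2 and IL4 averaged at most 1.42 CPM in a group and IL7 at most 1.102 CPM, and IL21 had 4 counts in chaetocin replicate 1 and none in the other 12 libraries. Of the other receptor subunits, 14 of 17 could be tested and none was called. The smallest p belonged to IL12RB1 with chaetocin (-0.43, -1.08 to 0.22), IL12RB2 with F5446 (-1.82, -3.94 to 0.30) and IFNLR1 with romidepsin (0.48, -0.14 to 1.103).

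All 11 kinases and STATs were tested and none was called in either direction. JAK3, which binds IL2RG, had 84.3 ± 14.5 CPM (SD, n = 4) with chaetocin and 90.0 ± 33.0 (n = 2) with DMSO. STAT5B, a STAT of the interleukin 2 receptor, had 68.3 ± 2.65 and 68.9 ± 8.88 CPM. With romidepsin the smallest p among these genes was that of TYK2, and none was under 0.05.

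Of the feedback genes and targets, 12 of 13 could be tested and none was called. SOCS1 had no count in any of the 13 libraries, which allows up to 0.0974 to 0.151 CPM at 3 counts a library. IRF1, an interferon gamma target, had 156 and 134 CPM in DMSO replicates 1 and 4 and 113, 89.9, 105.8 and 95.2 CPM in chaetocin replicates 1 to 4. These groups did not overlap, as for 6.09% of all tested genes in this direction. The log2 difference was -0.52 (-0.93 to -0.11, unadjusted p = 0.0158, edgeR), while F5446 differed by -0.29 (-0.73 to 0.15). CISH, a feedback inhibitor induced by STAT5, differed by -0.08 (-0.96 to 0.79) with chaetocin, and MYC by 0.19 (-0.07 to 0.46). With romidepsin the smallest p was that of PTPN2.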

How the data were processed

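Total RNA of 13 HuT78 libraries was sequenced. The authors deposited raw counts per gene, as whole numbers, for 45744 genes. Per the submitters' processing notes, the authors used bcl2fastq 2.20.0.422, cutadapt 1.8.1 and HTSeq 0.6.1 with build hg19. Aligner, strand setting and annotation release are not stated by the labels or the file header. Groups came from the sample titles.

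The low-count filter of edgeR left 17252 genes. One fit of all libraries, with treatment group as its term, used edgeR 4.0.16 (R 4.3.3) with TMM scaling and robust quasi-likelihood testing. The tests were two-sided. Benjamini-Hochberg adjustment covered all genes within each of 4 comparisons and an F test of any difference, with a threshold of 0.05. Intervals are at 95%. CPM used TMM library sizes, and log2 CPM for correlations a prior count of 2. RPKM used the exon union of GENCODE 29, another build, as did the exon overlaps. RefSeq promoters of GRCh38.p14 were matched by symbol, and no coordinates were converted. Plots used Python 3.11.15 and matplotlib 3.10.9.

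The members, lists, tests and naming rule were chosen with earlier results of these data known. All members are named, and of each list the gene with the smallest p in each comparison with DMSO, with partners and ligands of members. Some genes that the rule names are left out here. No 2 libraries were identical. Same-numbered chaetocin and F5446 libraries deviated together, with r = 0.41, 0.17 and 0.36 for numbers 2, 3 and 4. With DMSO, numbers 1 and 4 gave 0.47 and 0.48 for chaetocin and 0.44 and 0.28 for romidepsin, and number 4 gave 0.48 for F5446. The 2 DMSO libraries deviate from their mean by equal and opposite amounts, so the values with DMSO are not separate observations. Differences between the replicate-number sets were not removed before correlating. Correlations between differently numbered libraries were not computed, so these values cannot show that the numbers pair libraries. The main fit did not pair libraries, and the replicate block was an alternative. In simulated data for chaetocin against DMSO, on 16527 genes, 72 of 100 genes changed by 1 on the log2 scale were called. Of 100 changed by 2, 99 were called, and there were 9 false calls. The changed genes averaged at least 10 CPM, a level that IL2RA and IL10RA do not reach. Changes smaller than 1 were not simulated. Of the members that reach this level, IL2RB had the largest chaetocin difference from DMSO, at -0.71. No difference between the replicate-number sets was simulated, so the real recovery may be lower. Alternatives were DESeq2 1.42.0, limma-voom (limma 3.58.1), other scalings and filters, a non-robust fit, the 2 groups alone, a replicate block, a term for the replicate-number sets, omission of mitochondrially encoded genes and each library left out. Totals of 19901052 to 30816188 counts limit precision most for IL2RA and IL10RA.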

Additional observations from a re-analysis of the deposited data

Results flagged for a closer look

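Of 20 group and gene combinations with 4 libraries, 3 held a library whose gap to the nearest other was larger than Dixon's 95% critical value for its share of the range, where chance gives about 1 in 20. IL15RA was low in chaetocin replicate 1 at 10.8 CPM, with 0.840 of the range as gap. IL21R was high in the same library at 30.8 CPM, with 0.887. IL2RG was high in romidepsin replicate 4 at 198.0 CPM, with 0.845. The IL2RG value of 355 CPM in chaetocin replicate 3 did not exceed that criterion.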

How the results depend on the processing

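No member was called in any pairwise comparison under any setting. Of 40 log2 differences of members, 20 kept their sign in every setting, among them all of IL2RA against DMSO and those of IL2RB with chaetocin. Over settings other than left-out libraries, 420 of 432 values kept their sign. The exceptions were IL4R in romidepsin against DMSO (-0.021) and IL2RA in chaetocin against F5446 (0.094) in limma-voom. With the replicate block they were IL21R in chaetocin against DMSO (0.031), IL2RG (-0.17), IL4R (0.27) and IFNGR2 (-0.20) in F5446 against DMSO, IL21R in romidepsin against DMSO (0.12), and IL2RA (0.11) and IFNGR2 (0.085) in chaetocin against F5446. With the term for replicate-number sets they were IFNGR2 in chaetocin against DMSO (0.00089), IL2RG in F5446 against DMSO (-0.075) and IL2RA in chaetocin against F5446 (0.15). The causes were not tested. With a library left out, 481 of 520 values kept their sign. In chaetocin against DMSO the ranges were IL15RA -0.22 to 0.037, IL7R -0.55 to 0.57, IL4R -0.063 to 0.30, IL21R -0.31 to 0.031 and IFNGR2 -0.41 to 0.47. In F5446 against DMSO the ranges were IL2RB -0.28 to 0.016, IL2RG -0.044 to 0.096, IL7R -0.72 to 0.39, IL4R -0.20 to 0.15 and IFNGR2 -0.32 to 0.58. In romidepsin against DMSO the ranges were IL2RB -0.11 to 0.20, IL2RG -0.20 to 0.073, IL7R -0.23 to 0.89, IL4R -0.16 to 0.20, IL21R -0.082 to 0.094 and IFNGR2 -0.79 to 0.089. In chaetocin against F5446 the ranges were IL2RA -0.36 to 0.22, IL21R -0.078 to 0.26, IL10RA -0.23 to 0.077 and IFNGR2 -0.25 to 0.027.

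Genes called in chaetocin against DMSO, 0 in the report, were 9 with DESeq2 and with no filter, 1 with limma-voom and with a non-robust fit, 10 with the replicate block, 7 with the set term, and 0 to 2 with a library left out. In romidepsin against DMSO they were 1 with DESeq2, the block and the set term and 5 with no filter. In F5446 against DMSO they were 1 with DESeq2. In chaetocin against F5446 they were 2 with DESeq2, 9 with no filter, 11 with the block and 5 with the set term. The test of any difference, 4 genes in the report, called 29 with DESeq2, 1 with RLE size factors, 60 with no filter, 0 at a mean of 5 CPM, 65 with the block, 51 with the set term, 2 without mitochondrially encoded genes and 0 to 11 with a library left out. In that test 1 member, IL2RB, was called with no filter (adjusted p = 0.0014) and with the set term (0.0383). With a library left out its adjusted p ran from 0.128 to 1. A fit without 1 DMSO library assumes that the other varies like the other groups. IL2RA and IL10RA fell below the filter at 5 CPM. With library totals alone, all 40 group means of members moved by less than 1 SD.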
